A study of Mus musculus with 4 samples.

Results

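The H/ACA box and Cajal body small RNAs were taken as every gene whose name starts with Snora or Scarna, whatever its length. This gave 50 genes of 51905 in the tables, 41 named Snora and 9 named Scarna, each with 1 transcript. They ranged from 70 to 414 bases, and 44 of the 50 were under 200 bases. Brain RNA came from 4 groups of wild-type mice: the hybrids CAST/EiJ x C57BL/6 (F1r) and C57BL/6 x CAST/EiJ (F1i), and the inbred strains CAST/EiJ (CAST), a strain of the castaneus subspecies, and C57BL/6 (B6), the standard laboratory mouse. The labels give neither age nor sex and do not say which parent was the dam. Each group was 1 library made from RNA of the left hemispheres of 5 mice, pooled, so the differences below carry no error and no p-value and could not be checked in replicates. The files give FPKM, a fragment number divided by transcript length and by sequencing depth. In such bulk RNA, fewer cells of a type and less RNA per cell cannot be told apart.

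H/ACA RNAs fold into hairpins joined by a hinge (the H box) and end in a tail that carries the letters ACA near the 3′ end. Bound to dyskerin and its partner proteins, they pair with a target RNA and mark the uridine to be turned into pseudouridine. Those in the nucleolus act on ribosomal RNA, whereas the Cajal body RNAs act on the small nuclear RNAs of the spliceosome. Several Cajal body RNAs are of the C/D type, which guides 2′-O-methylation, or join both types in 1 molecule. In mammals most of these RNAs are cut out of the introns of host genes.

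The sequences carried the letters of each class, and some members were close copies of others. The 50 gene positions all matched GENCODE M21 on GRCm38, from which the sequences were read on the transcribed strand. ACANNN as the last 6 letters was found in 34 of 41 Snora and 2 of 9 Scarna RNAs, against 5.28% of 6995 other annotated transcripts under 200 bases. TGATGA, a common form of the C box, was found in 6 of 9 Scarna and 0 of 41 Snora RNAs, against 8.35% of those transcripts. Among its carriers, Scarna2, Scarna6 and Scarna10 are 414, 265 and 325 bases long, so for them that share is of unlike length. Scarna8, which ends in ACANNN, carried TGATGA too.

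Snora73a and Snora73b are shown because the members' largest well-measured difference lay in this pair. They are copies of the U17 RNA, which takes part in processing of the 18S ribosomal RNA precursor. Both lie on the minus strand within Snhg3, where no annotated exon holds either RNA whole, at chr4:132352775-132352979 and chr4:132352322-132352526. Capitals mark the 7 bases at which the copies differ.
Snora73a: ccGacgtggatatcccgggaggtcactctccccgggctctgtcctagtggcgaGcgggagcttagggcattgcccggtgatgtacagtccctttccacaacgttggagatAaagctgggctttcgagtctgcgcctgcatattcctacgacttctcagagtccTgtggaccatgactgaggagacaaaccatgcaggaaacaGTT
Snora73b: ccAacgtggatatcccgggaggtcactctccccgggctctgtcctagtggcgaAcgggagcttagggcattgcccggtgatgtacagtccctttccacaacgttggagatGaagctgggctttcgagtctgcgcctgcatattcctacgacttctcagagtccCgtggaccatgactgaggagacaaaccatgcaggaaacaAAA
Counted from the 5′ end, with the Snora73a base first, the differences are G3A, G54A, A111G, T164C, G203A, T204A and T205A. The copies are 96.6% identical over 205 bases, and 43.4% of the 31-base words of each recur in the other. Of the words of Snora73a, 85.1% recur in any other gene but 48.6% in genes elsewhere. Part of Snora73a thus also lies in an overlapping gene, to which its fragments may have been assigned.

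Snora61 is shown as a further member past the 2-fold rule between the strains, although it counts as well measured, as defined below, only through its level in CAST, and Snora35 as the member inside the serotonin receptor gene Htr2c, known in rodents as a brain-specific RNA. They lie at chr4:132310240-132310369 and chrX:146994381-146994508, both on the plus strand. Capitals mark the ACA box.
Snora61: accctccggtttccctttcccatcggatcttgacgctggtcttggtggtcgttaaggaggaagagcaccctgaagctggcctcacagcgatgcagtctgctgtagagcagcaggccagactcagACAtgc
Snora35: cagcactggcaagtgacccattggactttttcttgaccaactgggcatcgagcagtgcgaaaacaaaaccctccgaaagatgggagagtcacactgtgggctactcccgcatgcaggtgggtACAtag
Scarna13 is a well-measured Cajal body RNA with an ACA box (chr12:105031075-105031349, minus strand). It is the U93 RNA, which guides pseudouridines in small nuclear RNA.
Scarna13: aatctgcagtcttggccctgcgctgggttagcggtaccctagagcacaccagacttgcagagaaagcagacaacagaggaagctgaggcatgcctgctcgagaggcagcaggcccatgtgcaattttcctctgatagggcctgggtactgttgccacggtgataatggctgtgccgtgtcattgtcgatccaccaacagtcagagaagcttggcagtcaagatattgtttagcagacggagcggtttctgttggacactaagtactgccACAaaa
Scarna9, a C/D type guide annotated at 70 bases (chr9:15326264-15326333, minus strand), is shown as the member of shortest annotated length. Whether that annotation holds the whole RNA was not tested. Here the capitals mark TGATGA and, near the end, CTGA, the usual form of the D box.
Scarna9: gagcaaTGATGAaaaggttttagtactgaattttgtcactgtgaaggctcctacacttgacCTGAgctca

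Values of short transcripts appeared to move in steps, which limits what a low level of a short RNA can show. Among 460 transcripts of exactly 107 bases, values of 5 FPKM or more lay within 0.05 of whole multiples of 113 FPKM in F1r (8 of 8 values), 118 in F1i (5 of 6), 118 in CAST (7 of 7) and 89.2 in B6 (8 of 9). The base in each library was the observed value with the most values near its multiples, so these counts describe the fit and do not test it. For each member of up to 150 bases, the second lowest value of 5 FPKM or more among transcripts within 2 bases of its length is called its low value here. Around 79 bases the low value was 1470.1 FPKM in F1r, 1421 in F1i, 1467 in CAST and 1174 in B6. Around 130 bases it was 11.7, 14.6, 15.7 and 11.8 in the same order. A member was called well measured when its mean over the 4 libraries reached 10 times the mean low value, or 100 FPKM for members above 150 bases. This held for 22 members, 17 Snora and 5 Scarna, and the rule was set after the values were seen.

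In all, 42 members had a mean of at least 1 FPKM and entered the comparisons, 8 did not, and 27 of the 50 were above 0 in every library. Scarna9 and Snora31 entered through B6 alone, Scarna8 through F1i alone and Snora69 through F1r alone, being listed at 0 elsewhere. Snora43 entered through F1i, at 18.7 FPKM against 1.24 in F1r and 0 in CAST and B6. The 2-fold calls of these members follow from how they entered, although the counts below include them. Snora19, Snora20, Snora2b, Snora36b, Snora41, Snora65 and Snora75 were listed at 0 in all 4 libraries. Their hosts were expressed: Snora20 lies in Tcp1, a chaperonin gene at 78.9 FPKM in F1r, 78.8 in F1i, 77.1 in CAST and 75.7 in B6. The eighth was the second annotated Snora16a gene, which starts 1 base before the first and was at most 0.29 FPKM. Members listed at 0 numbered 12 in F1r, 16 in F1i, 17 in CAST and 12 in B6. Summed FPKM of all members was 47929 in F1r, 46395 in F1i, 39453 in CAST and 51409 in B6, and the 5 highest members held from 63.6% to 68.7% of it. As a share of all FPKM in the library the sum was 2.47% in F1r, 1.98% in F1i, 2.12% in CAST and 2.18% in B6. Much of the gap between the B6 and CAST sums lay in Snora73b and Scarna9, the latter listed at 0 in CAST. Between 64.9% and 69.7% of all FPKM in a library lay in transcripts under 200 bases.

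**Figure D1:**
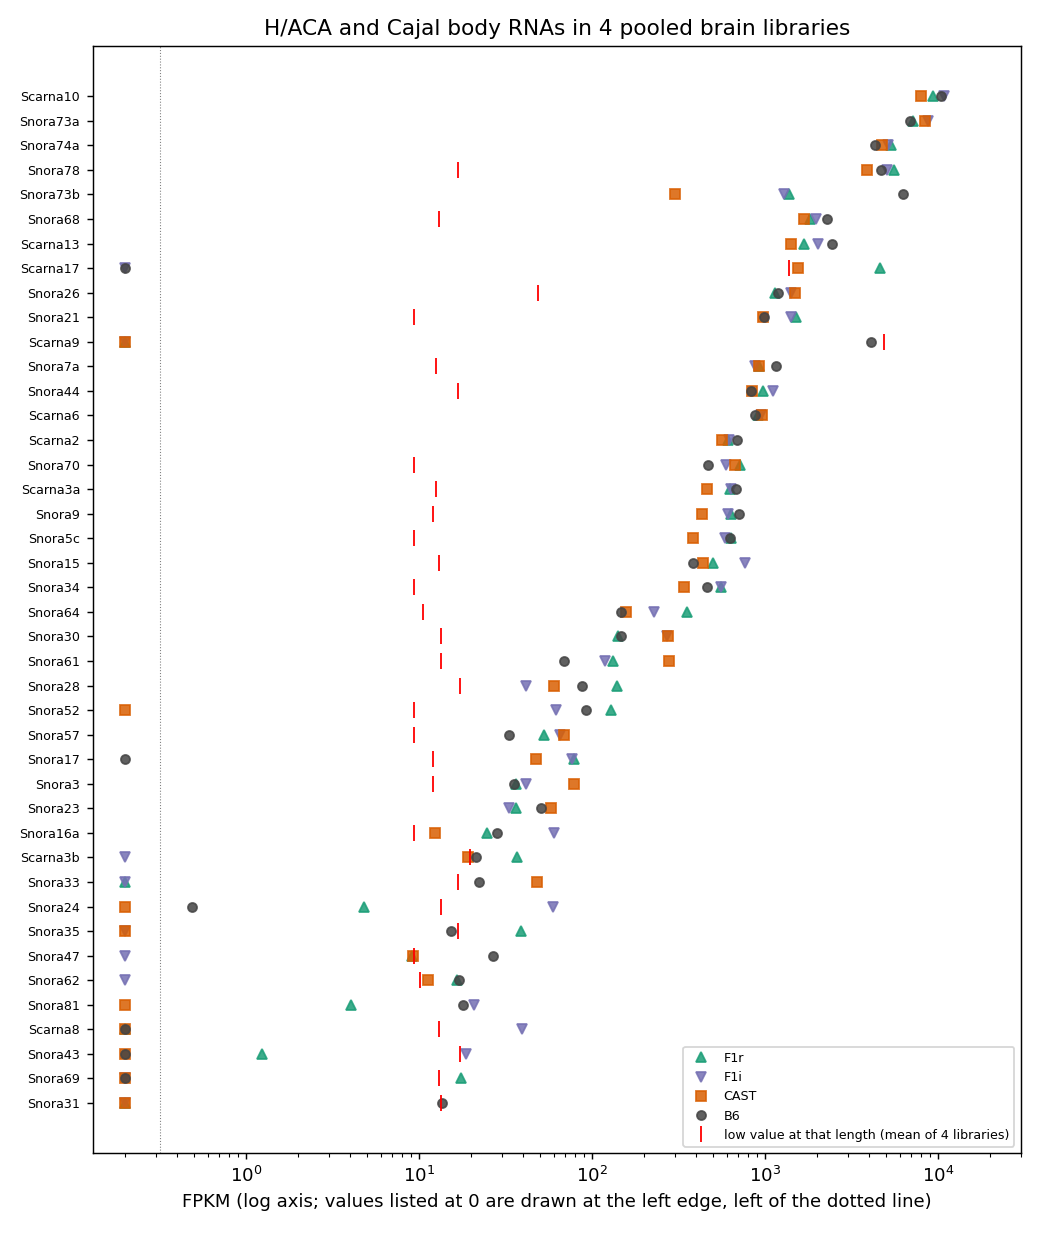
FPKM of the 42 members with a mean of at least 1 FPKM, 1 point per pooled library, on a log axis, with the low value of members up to 150 bases as red ticks. The 4 points lie close together in the upper part except for Snora73b, Scarna17 and Scarna9, and scatter down to 0 in the lower part.

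Among the Cajal body RNAs, the well-measured members were close across the libraries. Scarna10, the U85 RNA that guides both kinds of modification on U5 RNA, had the highest listed level, with 9373 FPKM in F1r, 10844 in F1i, 7943 in CAST and 10453 in B6. Scarna13 was at 1677, 2021, 1407 and 2449 in the same order. Its CAST minus B6 difference was -0.80 on the log2(FPKM + 1) scale, used for all differences below, and stayed short of 2-fold. Scarna2, a C/D type guide for U2 RNA with a gene of its own, was at 611 FPKM in F1r, 619.6 in F1i, 562 in CAST and 686 in B6. Scarna6, the U88 RNA, was at 916, 954, 961 and 874, and Scarna3a at 626, 634, 463 and 682. None of these 5 differed 2-fold between any pair of libraries compared.

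The other 4 Scarna genes rested on very little signal. Scarna17, a C/D type guide annotated at 79 bases, was at 4626 FPKM in F1r and 1549 in CAST and was listed at 0 in F1i and B6. These levels equal 3.15 and 1.06 times the low value at that length. Scarna9 was at 4094 FPKM in B6, 1.30 times its low value, and listed at 0 in F1r, F1i and CAST. Scarna8, the U92 guide for U2 RNA, was at 39.4 FPKM in F1i and listed at 0 elsewhere. Scarna3b was at 37.0 FPKM in F1r, 19.3 in CAST and 21.3 in B6 and listed at 0 in F1i. None of the 4 passed 4 times its low value in any library.

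Among the nucleolar guides, the high members kept like levels in all libraries, with Snora73b as the exception. Snora73a was at 7189.9 FPKM in F1r, 8763 in F1i, 8385 in CAST and 6919 in B6. Snora74a, the U19 guide for 28S ribosomal RNA, was at 5320.4, 5124, 4717 and 4333 in the same order, and Snora78 at 5554, 5108, 3872 and 4700.3. Snora68, a guide for ribosomal RNA, was at 1826 FPKM in F1r, 1978 in F1i, 1678 in CAST and 2276 in B6. Snora26 was at 1148, 1415, 1491 and 1189, Snora21 in the ribosomal protein gene Rpl23 at 1502, 1405, 970.2 and 983, and Snora7a in Rpl32 at 927, 879, 923 and 1153.

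The comparison of CAST with B6 asks how the parental strains differ. Of the 42 members compared, 6 were at least 2-fold higher and 8 at least 2-fold lower in CAST. Over all 14139 genes compared the shares were 3.25% higher and 2.98% lower, and over 329 other genes under 200 bases they were 16.4% and 31%. The members' shares of 14.3% and 19% were thus above those of all genes, but not above those of other short genes. The median difference was -0.21 for members, 0.03 for all genes and 0.00 for other short genes. Among 39 C/D box genes (named Snord), 4 were higher and 9 lower. Of the 14 members past the rule, 12 were not well measured and 9 were listed at 0 in at least 1 library. Among the 22 well-measured members, only Snora61 was higher and only Snora73b lower, and Snora61 passed as well measured only through its level in CAST.

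**Figure D2:**
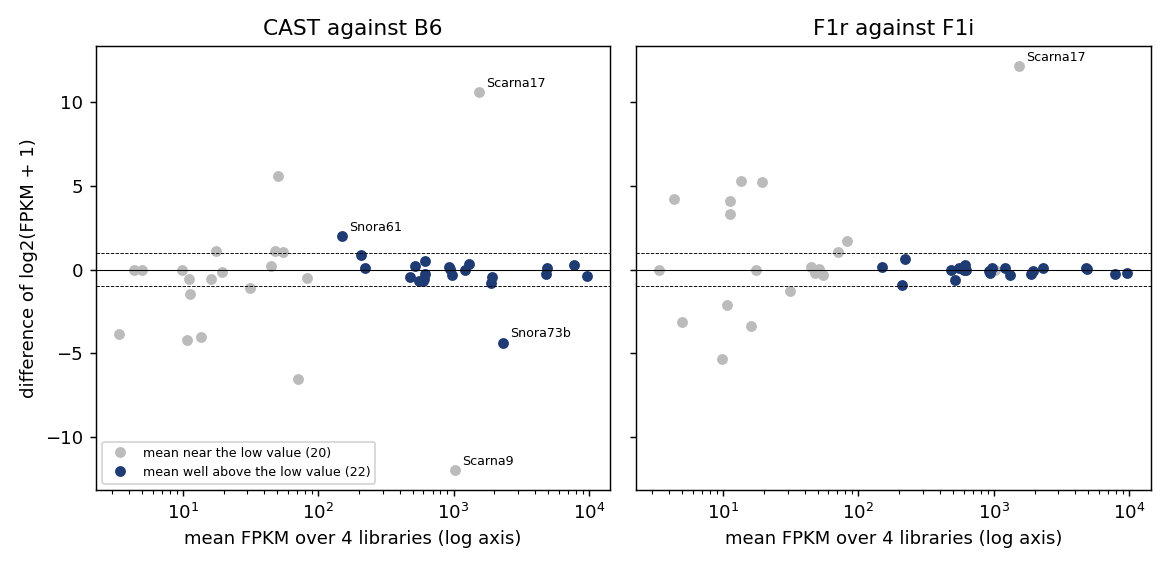
Difference of log2(FPKM + 1) against mean FPKM (log axis) for 42 members, CAST minus B6 on the left and F1r minus F1i on the right, with dashed lines at 2-fold. The 22 well-measured members (dark) lie near 0 apart from Snora61 and Snora73b on the left, and the 20 others (grey) spread widely in both panels.

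Snora73b was at 1371 FPKM in F1r, 1289.9 in F1i, 301 in CAST and 6314 in B6. Both hybrids lay between the strains and close to each other, below the parental mean of 3308 FPKM. The CAST minus B6 difference was -4.39. With B6 at 0 and CAST at 1, F1r stood at 0.82 and F1i at 0.84 on the FPKM scale, but at 0.50 and 0.52 on the log2 scale, where the hybrid mean minus the parental mean was -0.054. Snora73a, by contrast, had a CAST minus B6 difference of 0.28. Snora73b made up 16.0% of the pair's summed FPKM in F1r, 12.8% in F1i, 3.47% in CAST and 47.7% in B6. The sum of the pair was 8561 FPKM in F1r, 10053 in F1i, 8686 in CAST and 13234 in B6, a CAST minus B6 difference of -0.61 that stayed short of 2-fold. A further copy on chromosome 9, Gm26448, was at 976 FPKM in F1r, 1142 in F1i, 1075 in CAST and 947 in B6. Their host Snhg3 was at 16.6 FPKM in F1r, 13.3 in F1i, 12.3 in CAST and 13.8 in B6. How fragments of such similar copies were assigned to Snora73a or Snora73b, and whether this differs for CAST alleles, was not tested, and the split between the copies is uncertain.

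**Figure D3:**
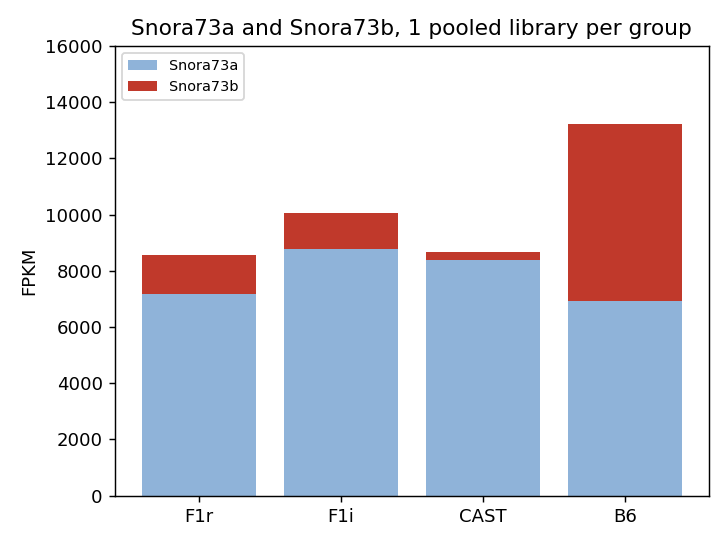
Stacked bars of Snora73a and Snora73b FPKM, 1 pooled library per group, from 0. The Snora73b segment is 301 FPKM in CAST, 6314 in B6 and 1289.9 to 1371 in the hybrids, and Snora73a lies between 6919 and 8763 throughout.

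Snora61 was at 131 FPKM in F1r, 119 in F1i, 280.1 in CAST and 69.2 in B6. CAST was highest, at 4.05 times the B6 level, B6 was lowest, and both hybrids lay between them. The 4 levels equal 11.2, 8.13, 17.8 and 5.85 times the low value, so the B6 level in particular rests on little signal. Without CAST, the library in which it was highest, its mean was 8.38 times the mean low value, and it would not count as well measured. Snora61 shares the host Snhg12, a non-coding gene, with Snora44 and Snora16a. Snora44 was at 969 FPKM in F1r, 1112 in F1i, 836 in CAST and 827 in B6, a CAST minus B6 difference of 0.01. Snora16a was at 24.7, 60.2, 12.4 and 28.4, a difference of -1.13 at 1.35 and 2.94 times the low value in CAST and B6. Snhg12 itself was at 26.9 FPKM in F1r, 26.5 in F1i, 25.9 in CAST and 28.9 in B6. The 3 RNAs of this host thus had 3 different CAST minus B6 values while the host was nearly level. All 3 lie within an exon of at least 1 annotated Snhg12 transcript, so their fragments may also have been assigned to the host.

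The remaining members past the rule between the strains were low. Higher in CAST were Snora57 (68.6 FPKM in CAST and 33.2 in B6), Snora3 in the ribosomal protein gene Rpl27a (79.2 and 35.4), Snora33 in Rps12 (48.1 and 22.2) and Snora17 (47.7, and listed at 0 in B6). Lower in CAST were Snora47 (9.19 FPKM in CAST and 26.9 in B6) and 4 members listed at 0 in CAST, which were Snora52 (92.2 in B6), Snora81 (17.9), Snora35 (15.4) and Snora31 (13.6). Snora52, in the ribosomal protein gene Rplp2, had 129.6 FPKM in F1r and 62.2 in F1i, and its 0 was in CAST alone. Snora17 had 78.7 FPKM in F1r and 76.7 in F1i, and its 0 was in B6 alone. Snora57 was barely past the rule, with a difference of 1.02 that became 0.96 under median-ratio scaling and 0.80 with its copy added. Snora31 was at 1.14 times the low value in B6 and listed at 0 in the other libraries.

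Setting the F1 libraries between the strains gave a spread of positions. Over the 14 members at least 2-fold apart between CAST and B6, with B6 at 0 and CAST at 1, the median position was 0.66 in F1r and 0.58 in F1i. Strictly between the strains lay 6 of 14 members in F1r and 5 of 14 in F1i, and a further 2 in F1r and 4 in F1i were listed at 0 like one of the parents. These members were chosen by the parental libraries that set the scale, so the positions are a description. Against the mean of the parents on the log2 scale, the mean of the hybrids was at least 2-fold higher for 7 of 42 members and lower for 6. The shares over all genes were 0.997% and 0.743%, and over other short genes 28.3% and 24.9%. The median difference was 0.17 for members, 0.00 for all genes and 0.17 for other short genes. All 13 members were listed at 0 in at least 1 library, and none was well measured. Higher in the hybrids were Snora24, Snora17, Snora52, Snora43, Scarna8, Snora69 and Snora81, with differences from 1.27 (Snora81) to 3.94 (Snora24). Lower were Scarna9, Snora33, Snora47, Snora62, Scarna3b and Snora31, with Scarna3b the nearest to 0 at -1.79. For several of these members the hybrids went apart. Scarna3b and Snora62 were listed at 0 in F1i. In F1r, Scarna3b was at 37.0 FPKM, above both strains, and Snora62 at 16.5 FPKM, against 11.2 in CAST and 17.0 in B6. Snora47 was at 9.08 FPKM in F1r, against 9.19 in CAST, and listed at 0 in F1i. Of the hybrids, Scarna8 was above 0 in F1i alone and Snora69 in F1r alone. Snora43, Snora24 and Snora81 were at 1.24, 4.79 and 4.07 FPKM in F1r but 18.7, 59.5 and 20.8 in F1i. The calls of Scarna3b, Snora62, Snora47, Scarna8, Snora69 and Snora81 thus came mostly from 1 hybrid library. Among well-measured members the largest difference was that of Snora64, which lies in the ribosomal protein gene Rps2. It had 354 FPKM in F1r and 229 in F1i, above 157 in CAST and 148 in B6, a difference of 0.90 that stayed short of 2-fold.

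F1r against F1i asks how the reciprocal crosses differ, and any other difference between the 2 pools enters it too. Of the 42 members, 8 were at least 2-fold higher and 5 at least 2-fold lower in F1r. Over all genes the shares were 0.7% and 0.884%, and over other short genes 16.7% and 25.2%. Higher in F1r were Scarna17, Snora35, Scarna3b, Snora69, Snora62, Snora47, Snora28 and Snora52, and lower were Scarna8, Snora24, Snora43, Snora81 and Snora16a. Of these 13, 11 were listed at 0 in at least 1 library. None of the 22 well-measured members passed the rule. The largest differences among them were Snora30 (142 FPKM in F1r and 270.4 in F1i, a difference of -0.93), Snora64 (0.63) and Snora15 (501 and 763, -0.61). Of the low members, Snora28 in the translation factor gene Eif5 had 139 FPKM in F1r and 41.4 in F1i, and Snora24 had 4.79 and 59.5. For Snora28 neither value was 0 and the strains were at 60.6 FPKM in CAST and 87.9 in B6.

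The well-measured members differed less between the reciprocal hybrids than between the strains. Their median absolute difference was 0.12 for F1r against F1i and 0.36 for CAST against B6. Over all genes the same medians were 0.11 and 0.20. Between the strains, 10 of the 22 were higher in value in CAST and 12 lower. Scarna13 (-0.80), Snora9 in the non-coding gene Snhg15 (432 FPKM in CAST and 708 in B6, -0.71) and Snora5c in Tbrg4 (384 and 627, -0.71) were the lowest after Snora73b. Snora30 (274 and 148, 0.88) and Snora70 in Rpl10 on the X chromosome (675 and 468, 0.53) were the highest after Snora61.

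Of the X-linked members only Snora70 was well measured, at 713 FPKM in F1r, 594 in F1i, 675 in CAST and 468 in B6. Snora35 was at 39.0 FPKM in F1r and 15.4 in B6 and listed at 0 in F1i and CAST. These values are 2.35 and 1.11 times the low value, whereas its host Htr2c was at 13.6, 16.3, 14.9 and 15.5 FPKM in F1r, F1i, CAST and B6. Snora69 in Rpl39 was at 17.4 FPKM in F1r and listed at 0 in the others. Snora69 was at 1.49 times the low value in F1r, so both rest on under 3 low values.

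Between the strains, differences of members and of their hosts did not run together. A host on the same strand was annotated for 45 of 50 members, in 40 genes, of which 11 members lay in ribosomal protein genes. For 26 members no exon of a host transcript held the RNA whole, and for 19 an exon of a host transcript covered the member. Partial overlap of the 26 with exons was not tested. Some of them, such as Scarna10 and Snora15, share sequence with an overlapping annotated gene, so part of them may be exonic. Others, such as Scarna6 and Snora78, share none. Among 19 well-measured members whose host was also compared, 11 had the host's sign in CAST against B6, and across these members, which share hosts and libraries, Pearson's r was -0.02 and Spearman's rho 0.11. Against the parental mean 9 of 19 had the host's sign, with r 0.52 and rho 0.04. Rps2 was at 114 FPKM in F1r, 116 in F1i, 9.28 in CAST and 220.1 in B6, while Snora64 inside it differed by 0.09 between CAST and B6. Snora64 lies within an exon of 1 annotated Rps2 transcript, so its fragments may also have been assigned to Rps2. How fragments of Rps2 and Snora64 were assigned was not tested. Snhg9, host of Snora78, was at 19.98 FPKM in F1r, 10.97 in F1i, 1.96 in CAST and 27.1 in B6, while Snora78 differed by -0.28. Snora78 lies antisense to Rps2, and whether reads were counted by strand is not given in the sources used here. Snora64 and Snora78 thus lie at 1 locus on chromosome 17, and their hosts are not independent cases.

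**Figure D4:**
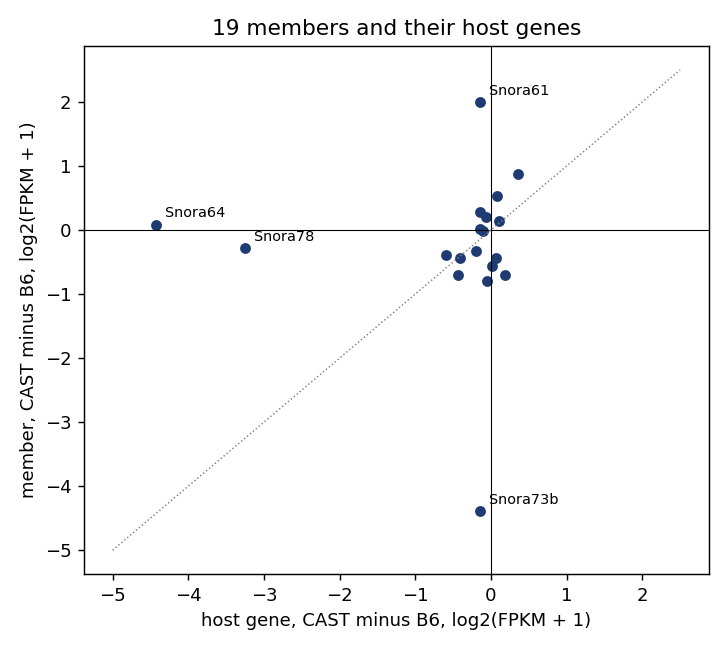
CAST minus B6 difference of log2(FPKM + 1) of 19 well-measured members against that of their host genes, with a dotted line of equality. Snora73b and Snora61 sit far from 0 over hosts near 0, and Snora64 and Snora78, which lie at the same locus, sit near 0 over hosts at -4.43 and -3.25.

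Transcripts of the proteins that bind and place these RNAs stayed within 2-fold in every comparison, as did most genes. Protein levels were not measured. None of the 4 H/ACA particle protein genes passed the 2-fold rule in any comparison. Dkc1, the pseudouridine synthase dyskerin, was at 7.38 FPKM in F1r, 7.97 in F1i, 8.66 in CAST and 7.17 in B6. Gar1, Nhp2 and Nop10 had CAST minus B6 differences of -0.21, -0.26 and -0.09. The same held for 6 assembly factors, with Naf1, which precedes Gar1 on the particle, at 2.99, 3.52, 3.04 and 3.16 FPKM in F1r, F1i, CAST and B6, and for 8 Cajal body genes. Of the Cajal body genes, the scaffold Coil was at 6.93, 7.09, 6.68 and 6.51, and Wrap53, which binds the Cajal body signal of these RNAs, at 5.01, 4.95, 4.32 and 6.19. Of 11 stand-alone pseudouridine synthases compared, 0 passed, with Trub2 the furthest apart (12.02 FPKM in CAST and 6.61 in B6, a difference of 0.77). None of 4 C/D particle protein genes and 8 trimming, tailing and debranching genes passed. Over all 14139 genes compared, 6.22% passed for CAST against B6, 1.58% for F1r against F1i and 1.74% for the F1 mean. At such shares small lists can readily hold 0 calls, so this is not particular to these genes. Terc, the telomerase RNA, which also ends in an H/ACA domain, was at 3.80 FPKM in F1r, 5.83 in F1i, 4.16 in CAST and 6.99 in B6, with a CAST minus B6 difference of -0.63. The libraries had brain markers at high levels, such as the synaptic gene Snap25 at 499 to 635 FPKM. Of 5 markers of other tissues, Alb (liver), Myh1 (muscle) and Krt14 (skin) stayed at or below 0.35 FPKM. The red cell gene Hba-a1 was at 88.7 FPKM in F1r, 143 in F1i, 137 in CAST and 107 in B6, and Omp of the olfactory epithelium at 4.65, 4.31, 7.11 and 3.99; their part in the differences was not tested.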

How the data were processed

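RNA abundance was measured in 4 libraries, 1 per group. Per the labels' protocols, each library pooled left-hemisphere RNA of 5 mice and was prepared strand-specifically, whereas the design text names the whole brain. The authors deposited FPKM per transcript. Cufflinks 2.2.1, Cuffdiff, HISAT2, Trimmomatic 0.36 and bcl2fastq 2.20 are named in the submitters' processing notes with build mm9, yet 99.6% of the 128603 transcripts are in GENCODE M21 and 97.2% of these have its GRCm38 coordinates, which are given here. Per the file headers the other column used is transcript length, deposited in bases as an annotation value. The depth is unknown, and so is how multiply mapped reads were treated, so no interval is printed.

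FPKM was summed per gene and compared as log2(FPKM + 1) among genes with a mean of at least 1 FPKM, with a 2-fold rule and no test. Short length inflates FPKM, so levels are compared between libraries rather than between members. Hosts are the shortest same-strand GENCODE gene, not itself a small RNA, that spans a member. Words of 31 bases were searched in all GENCODE M21 transcripts. Members and gene lists were chosen with earlier results of these data known. Named are all Scarna genes, the 12 members highest in mean FPKM, the 12 largest differences per direction between the strains and the 8 largest otherwise among members past the rule, some members with a known host, the listed protein genes and the hosts; Snora5c, Snora9, Snora15, Snora30, Snora44, Snora64, and those listed at 0 throughout other than Snora36b were named after their values were seen. Genes of the lists are given by counts with examples. Python 3.11.15, numpy 2.4.6, pandas 2.3.3 and matplotlib 3.10.9 were used. The 2-fold rule for CAST against B6 was tested on simulated data with changes planted in genes of higher level. The low values, stepped values, hosts, shared words and the other comparisons were not tested in that way.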

Additional observations from a re-analysis of the deposited data

How the results depend on the processing

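No paired analysis was possible because each group is 1 library and no result comes from a test; leaving out a replicate was not possible either. The counts below are of members at least 2-fold higher and lower, for CAST against B6 (6 and 8), F1r against F1i (8 and 5) and the F1 mean against the parental mean (7 and 6). Restricting to the 22 well-measured members, chosen after the data were seen, left 1 and 1, 0 and 0, and 0 and 0. Members above 0 in all 4 libraries, 27 in number, gave 3 and 2, 1 and 1, and 0 and 0. Members with under 5% of their 31-base words in any other gene, 11 in number, gave 0 higher and 4 lower for CAST against B6, 4 and 1 for F1r against F1i, and 2 higher for the F1 mean; the medians of the last 2 comparisons became 0.12 and -0.014, against 0.00 and 0.17. A pseudocount of 10 gave 3 higher for CAST against B6, and 4 higher and 2 lower for the F1 mean. A mean of at least 10 FPKM gave 3 lower for F1r against F1i and 4 higher for the F1 mean, and a 3-fold rule 3 higher for CAST against B6. The CAST minus B6 median of -0.21 became -0.083 with a pseudocount of 10, -0.019 over members above 0 in all libraries, and -0.054 after rescaling to a common total over transcripts of 200 bases or more. That rescaling moved the median of all genes to 0.19 and, for F1r against F1i, to 0.14, where the members' median became 0.12. Median-ratio scaling, a pseudocount of 0.1, no filter, FPKM times length and adding copies elsewhere, the last chosen after the data were seen, kept every count within 1.5 times and every median within 0.1. Single calls still changed. Snora57 lost its call under median-ratio scaling and with its copy. Snora73b, summed with Snora73a and its other copies, also lost its call, with a CAST minus B6 difference of -0.54. Snora41 gained calls with its copy, at 4.14 for CAST against B6 and -2.07 for the F1 mean. Snora3 gained a call for the F1 mean with its copies, moving from -0.44 to -1.82. Its CAST minus B6 difference moved from 1.14 to 2.30, with 1 of the copies at 340 FPKM in CAST and listed at 0 in the other libraries. Positions on the log2 scale had medians of 0.48 in F1r and 0.45 in F1i, against 0.66 and 0.58. Depth limits the members of few low values, for which a 0 is no sign of absence.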
